A study of Mus musculus with 10 samples.

Results

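Secondary granule genes and S100 alarmins are transcripts of the neutrophil lineage, and 8 of them were described here in knee articular cartilage of mice. The set was named by gene symbol: Ltf, Camp, Ngp, Lcn2 and Chil3 as secondary granule genes, S100a8 and S100a9 as alarmins, and Ltb4r1 as a receptor gene. All 8 were found among the 35705 genes to which the deposited transcripts could be assigned, each by 1 gene identifier. The libraries came from 10 mice, 5 labelled as wild-type controls and 5 labelled Mir324-null, with 1 library of total RNA from the medial knee cartilage cap of 1 mouse each. Mir324 encodes a microRNA precursor. Its level was not analysed here, so the genotype rests on the labels. No mouse had been treated. How the null allele was made, the mouse strain, and the age, sex and litter of the animals are not given in the sources used here.

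Neutrophils mature in the bone marrow through stages that are marked by their granules. Primary granules with enzymes such as myeloperoxidase are made first, secondary (specific) granules with lactoferrin, cathelicidin and lipocalin follow in myelocytes and metamyelocytes, and S100A8 and S100A9 fill the cytosol of maturing and mature cells as a calcium-binding heterodimer known as calprotectin. When such proteins leave the cell they bind iron (lactoferrin), bacterial siderophores (lipocalin 2), or zinc and manganese (calprotectin), and S100A8 and S100A9 act as alarmins on Toll-like receptor 4. Cartilage itself has no blood vessels, and the marrow lies beneath the bone plate under it.

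The library as a whole held cells of several tissues. Of 9 cartilage markers, 8 passed the filter of a mean of 1 TPM (a transcript level per length, relative to a fixed library total), led by Prg4 at 2320 TPM and Chad at 669 TPM. All 8 osteoblast and osteocyte markers passed as well, led by Bglap at 2586 TPM and Spp1 at 1395 TPM. Haemoglobin genes took 11.2% to 26.1% of a library. Markers of the labelled cell type, chondrocyte, were therefore present together with markers of bone and blood cells. Keratinocytes can also make S100A8 and S100A9, and 4 of their genes were read. Krt5 and Krt14 were listed at 0 in all 10 libraries, and Krt1 was above 0 in wild-type 1 and 3 only, at up to 0.0675 TPM. Krt10 was present in every library at 0.955 to 3.82 TPM and averaged 3.18 TPM in controls against 1.87 TPM in null libraries (log2 difference -0.55, limma adjusted p = 0.351), with an unadjusted p under 0.05. The part of such cells in the S100a8 and S100a9 levels was not tested.

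Sequences upstream of 5 of the genes are shown because the levels of these genes moved most closely together over the mice (Ltf with Ngp, and S100a8 with S100a9) or because the gene encodes the receptor of the set (Ltb4r1). They are RefSeq promoter windows of build GRCm38.p6, written on the strand of the gene and ending before the first base of the gene in GENCODE M21. Capitals mark matches to TTGCNNAA, letters of a C/EBP-type motif, and to GAGGAA, letters of a PU.1-type motif, searched on both strands and without overlap between the motifs in these 5 windows.
Ltf, chr9:111019042-111019270, plus strand: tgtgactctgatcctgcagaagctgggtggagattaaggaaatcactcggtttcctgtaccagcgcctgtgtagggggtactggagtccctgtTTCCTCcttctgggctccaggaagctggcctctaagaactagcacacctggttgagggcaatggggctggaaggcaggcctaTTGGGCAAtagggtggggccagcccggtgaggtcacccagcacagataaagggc
Ngp, chr9:110419558-110419746, plus strand: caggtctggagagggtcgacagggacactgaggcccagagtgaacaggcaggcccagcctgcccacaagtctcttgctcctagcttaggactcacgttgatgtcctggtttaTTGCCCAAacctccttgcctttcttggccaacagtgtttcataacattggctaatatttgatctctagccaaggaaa
S100a8, chr3:90668821-90668977, plus strand: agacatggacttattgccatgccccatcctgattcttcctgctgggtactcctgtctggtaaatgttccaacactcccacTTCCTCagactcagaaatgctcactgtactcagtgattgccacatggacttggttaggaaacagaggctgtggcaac
S100a9, chr3:90695722-90695971, minus strand: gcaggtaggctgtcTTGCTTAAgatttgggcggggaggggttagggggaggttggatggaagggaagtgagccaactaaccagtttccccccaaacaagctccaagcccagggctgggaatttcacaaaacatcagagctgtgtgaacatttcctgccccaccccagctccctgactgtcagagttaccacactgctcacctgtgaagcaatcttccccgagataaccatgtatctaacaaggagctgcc
Ltb4r1, chr14:55765712-55765961, plus strand: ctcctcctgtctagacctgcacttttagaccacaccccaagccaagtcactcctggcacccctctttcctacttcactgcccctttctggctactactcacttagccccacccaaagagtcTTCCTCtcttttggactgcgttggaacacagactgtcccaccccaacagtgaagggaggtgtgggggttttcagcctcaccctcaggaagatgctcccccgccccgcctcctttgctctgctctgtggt

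Over the full windows of 250 bases before the RefSeq start, the C/EBP letters were found in 4 of the 8 genes (Lcn2, Ltf, Ngp and S100a9), against 9.6% of all 32851 promoter windows. The PU.1 letters were found in 4 of the 8 (Lcn2, Ltb4r1, Ltf and S100a8), against 23.3% of all windows. Both occurred in Lcn2 and Ltf, against 2.1% of all windows. Neither was found in the windows of Camp and Chil3. The Lcn2 window lies wholly inside the gene as annotated in GENCODE M21, so its matches are not upstream of that gene start. Of the Camp window only 89 bases lie before the GENCODE gene, and the windows of Ltf, Ngp and S100a8 also reach into theirs. A match is a run of letters in the reference and was not measured as a bound site. Camp (chromosome 9, 109847379 to 109849617, minus strand), Ngp (110419747 to 110423012, plus strand) and Ltf (111019271 to 111042767, plus strand) lie on the same chromosome in GRCm38. S100a8 (90668978 to 90670035, plus strand) and S100a9 (90692632 to 90695721, minus strand) are neighbours on chromosome 3, which also carries Chil3 (106147554 to 106167564, minus strand). Lcn2 lies on chromosome 2 (32384633 to 32388252, minus strand) and Ltb4r1 on chromosome 14 (55765962 to 55768494, plus strand). No other gene of the table overlapped any of the 8 in the annotation.

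The 2 alarmin genes were among the most abundant transcripts of every library. S100a9 ranked between 2 and 5 and S100a8 between 3 and 6 of all genes. Ngp ranked between 7 and 16, Camp between 8 and 27, Ltf between 9 and 31, Lcn2 between 18 and 55, and Chil3 between 32 and 176. Together the 8 genes held 5.61% to 11.6% of a library, most of it from the S100 pair, which held 4.09% to 8.48%. The 5 secondary granule genes held 1.19% to 3.44%. Since each library is one bulk sample, fewer cells of a type and less RNA per cell cannot be told apart.

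**Figure D1:**
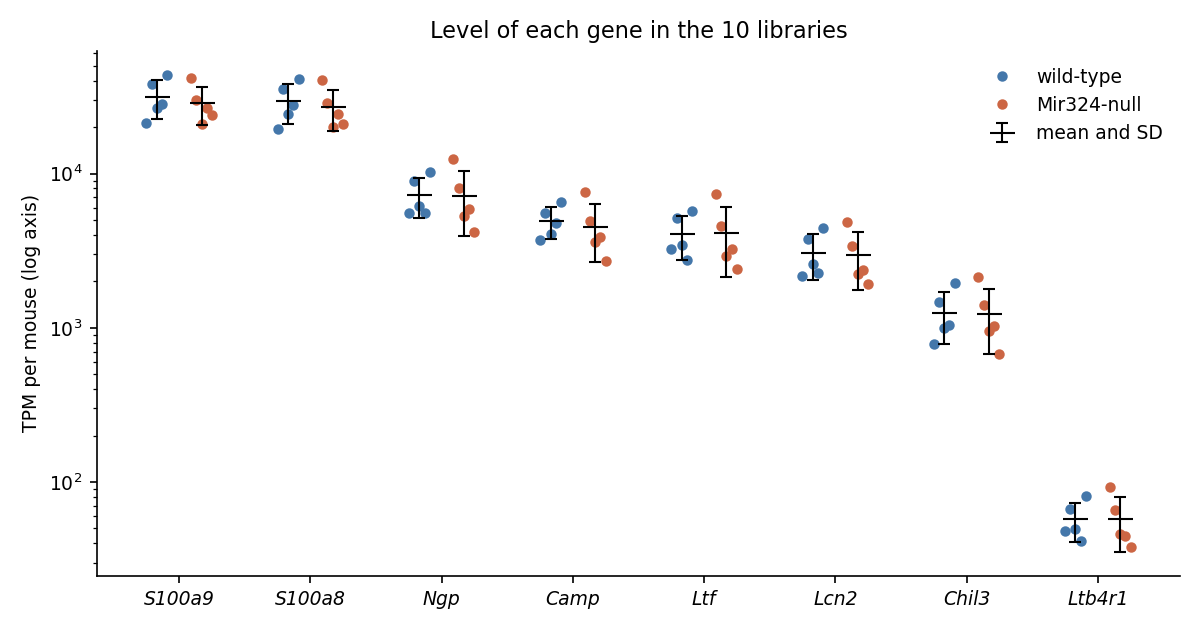
TPM (log axis) of each of the 8 genes in the 10 libraries, 5 points per genotype, with a bar for the mean and whiskers for the SD. S100a9 and S100a8 have means of 30088 and 28246 TPM and Ltb4r1 of 57.5 TPM, and the wild-type and Mir324-null points overlap for every gene.

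S100a9 encodes the larger subunit of calprotectin. Its level was 21415, 37828, 26483, 28318 and 43779 TPM in wild-type mice 1 to 5 and 41561, 30095, 20908, 26701 and 23794 TPM in null mice 1 to 5. Wild-type 5 and null 1 were the highest of their groups, and the ranges of the groups overlapped. S100a8 encodes the partner subunit. It stood at 19437, 35468, 24477, 27610 and 41000.5 TPM in wild-type mice 1 to 5 and at 40159.5, 28746, 20125, 24352 and 21082 TPM in null mice 1 to 5. The same 2 mice were highest for both subunits, while the lowest wild-type mouse was mouse 1 and the lowest null mouse was mouse 3 for both.

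Ngp (neutrophilic granule protein, a relative of the cathelicidins and cystatins) was the most abundant of the 5 secondary granule genes. It reached 5552, 8933, 6153, 5518 and 10166 TPM in wild-type mice 1 to 5 and 12480.0, 8054, 5333, 5868 and 4201 TPM in null mice 1 to 5. Null mouse 1 was the highest and null mouse 5 the lowest of all 10, so that the extremes of both directions fell in the null group. Camp encodes the cathelicidin precursor, from which an antimicrobial peptide is cut. It measured 3703, 5552, 4066, 4784 and 6549 TPM in wild-type mice 1 to 5 and 7549, 4915, 3601, 3850 and 2700.0 TPM in null mice 1 to 5. Ltf encodes lactoferrin and measured 3231, 5118, 3439, 2742 and 5684 TPM in wild-type mice 1 to 5 and 7366, 4589, 2937, 3235 and 2420 TPM in null mice 1 to 5. For both genes null mouse 1 was highest and null mouse 5 lowest, but wild-type 4 was the lowest wild-type mouse for Ltf and lay mid-range for Camp.

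Lcn2 encodes lipocalin 2, which withholds iron by binding bacterial siderophores. It ranged from 2159 to 4443 TPM in wild-type and from 1923 to 4872 TPM in null mice. Chil3 encodes the chitinase-like protein Ym1 and ranged from 786 to 1959 TPM in wild-type and from 680 to 2122 TPM in null mice. In Lcn2 and Chil3 the highest and lowest of the 10 were again null mice 1 and 5. The value of Chil3 is uncertain to the extent that reads are shared with its close relative Chil4 (chromosome 3, 106201490 to 106219507), whose own mean was 1.98 TPM.

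Ltb4r1 encodes the high-affinity receptor BLT1 for the chemoattractant leukotriene B4. It measured 48.0, 66.7, 49.6, 41.2 and 81.1 TPM in wild-type mice 1 to 5 and 93.0, 66.04, 46.3, 44.9 and 38.0 TPM in null mice 1 to 5. Its level was a small fraction of that of the granule genes, yet the highest and lowest mice were the same. The neighbouring gene Ltb4r2 (chromosome 14, 55761428 to 55765138), which encodes the second receptor of this ligand, averaged 0.899 TPM and stayed below the filter.

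The order of mean levels was S100a9, S100a8, Ngp, Camp, Ltf, Lcn2, Chil3 and Ltb4r1, and in each of the 10 libraries every gene was above the next in this order. Some neighbours were close. S100a9 was 1.03 to 1.13 times S100a8, and Camp was 1.02 to 1.74 times Ltf. Part of these levels was assigned to transcripts that are not annotated as coding. A retained-intron transcript held 17.5% to 26.7% of the S100a8 TPM, and another, Ltf-208, held 14.9% to 19.6% of the Ltf TPM. Of the 12 Ltf transcripts listed, the leading one, Ltf-203, is annotated as coding and held 29.7% to 36.0%. Protein-coding transcripts together held 73.4% of the Ltf TPM over the 10 libraries. With protein-coding transcripts alone, a choice made after the data were seen, S100a9 was 1.34 to 1.46 times S100a8. Ltf was then above Lcn2 in 4 of 10 libraries only, so the place of these neighbours depends on which transcripts are counted.

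The comparison of Mir324-null with wild-type mice found no difference in the 8 genes beyond the spread between mice. All 8 passed the filter and were tested with limma on log2(TPM + 1) across 13841 genes. Of the 8, 0 passed adjustment over all genes tested at 0.05 (limma with Benjamini-Hochberg), against a background of 0 of 13841 genes (0.0%), and 0 had an unadjusted p under 0.05, against 11.6% of all genes (1603). In 0 of the 8 did the null and wild-type values fail to overlap, against 1.94% of all genes. The 8 estimates ranged from -0.18 to -0.025 with a median of -0.073, beside a median of -0.045 over all genes tested. All 8 estimates were below 0 with TPM as deposited, but the sign followed the scaling. After median ratio scaling 3 of 8 were above 0, after quantile normalization 3 of 8, and after rescaling without the haemoglobin genes 5 of 8.

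**Figure D2:**
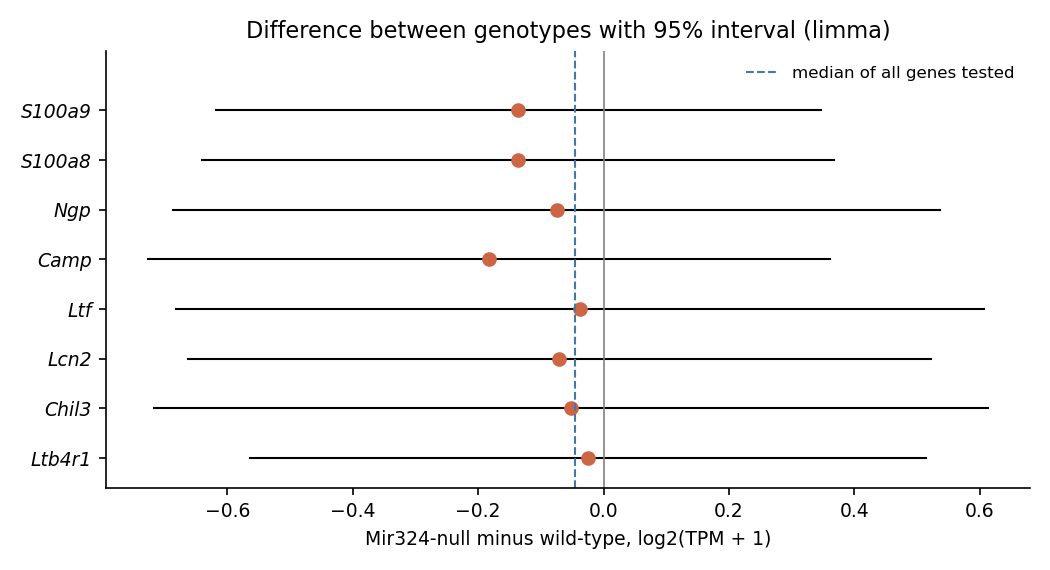
Difference of Mir324-null minus wild-type on the log2(TPM + 1) scale for each gene (points) with the 95% interval from limma (lines); the dashed line is the median of all genes tested, at -0.045. All 8 intervals include 0.

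Among the granule genes, Camp had the largest estimate, at 4931 ± 1149 TPM in controls against 4523 ± 1867 TPM in Mir324-null animals (mean ± SD, n = 5 each). Its log2 difference was -0.18 with a 95% interval of -0.73 to 0.36 (limma, adjusted p = 0.858), and 4 of 5 null mice lay below the wild-type mean. Ngp averaged 7264 ± 2146 and 7187 ± 3273 TPM (SD, n = 5 each), a log2 difference of -0.075 with an interval of -0.69 to 0.54 (limma adjusted p = 0.959). Ltf averaged 4043 ± 1281 and 4110 ± 1989 TPM (SD, n = 5 each), with the higher arithmetic mean in null mice and a log2 difference of -0.038 (interval -0.68 to 0.61, limma adjusted p = 0.980). Each of these intervals includes both 0 and a fall of 0.5 on the log2 scale. Lcn2 (-0.071, interval -0.66 to 0.52) and Chil3 (-0.052, interval -0.72 to 0.61) had limma adjusted p-values of 0.960 and 0.973.

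For the alarmins, S100a8 averaged 29598 ± 8630 TPM in controls and 26893 ± 8146 TPM in Mir324-null animals (SD, n = 5 each). The log2 difference was -0.14 with an interval of -0.64 to 0.37 (limma adjusted p = 0.895), and 4 of 5 null mice were below the wild-type mean. S100a9 averaged 31565 ± 9053 and 28612 ± 8002 TPM (SD, n = 5 each), with the same log2 difference of -0.14 (interval -0.62 to 0.35, limma adjusted p = 0.888). The difference of both subunits was within the spread between mice. For Ltb4r1 the means were 57.3 ± 16.3 and 57.6 ± 22.4 TPM (SD, n = 5 each), a log2 difference of -0.025 (interval -0.56 to 0.51, limma adjusted p = 0.983). Exact permutation tests of single genes, two-sided, gave p-values from 0.548 (Camp) to 0.937 (Ltb4r1), where the smallest possible is 0.00794.

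The summed share of the 8 genes was 8.18% ± 2.35 of the library in wild-type and 7.56% ± 2.49 in null mice (SD, n = 5 each). The difference of -0.62 percentage points rested on single mice, being 0.18 without wild-type 5 and -1.63 without null 1. Markers of other cells were read in the same libraries, and 0 of the osteoblast, osteocyte or erythroid markers passed adjustment (limma, smallest adjusted p = 0.277 and 0.308). The 8 osteoblast and osteocyte markers summed to 0.567% to 1.003% in wild-type and 0.263% to 0.505% in null libraries, and none was listed at 0. Of these 8, 7 were lower in null mice at an unadjusted limma p under 0.05, against 7.3% of all genes, and 6 under each of the other 3 scalings. At that p, 860 of 13841 genes were lower after median ratio scaling, 929 after quantile normalization and 578 of 13835 without haemoglobin genes. All 8 bone marker estimates were below 0 under each scaling, and of all 13841 genes 8307 were below 0 with TPM as deposited. The 9 cartilage markers summed to 0.236% to 0.725% in wild-type and 0.214% to 0.348% in null libraries, so that the groups overlapped. Of the 8 tested, 7 estimates were below 0, and 4 were lower at an unadjusted limma p under 0.05, against 7.3% of all genes. None passed adjustment (limma, smallest adjusted p = 0.331), and the cartilage count was not repeated under the other scalings. The 7 erythroid markers summed to 11.3% to 19.9% in wild-type and 15.9% to 26.4% in null libraries, so that the groups overlapped, and none was listed at 0. Of these 7, 4 were higher in null mice at an unadjusted limma p under 0.05, against 4.28% of all genes, but 3 after quantile normalization and 2 after median ratio scaling. After rescaling without the haemoglobin genes 3 of these markers were left to test, and 3 were higher at that threshold. Of 13841 genes, 914 were higher at it after median ratio scaling, 884 after quantile normalization and 1219 of 13835 without haemoglobin genes. Because TPM are shares of a fixed total, the shares of such marker genes enter the values of all other genes. The part of these markers in the differences of the 8 genes was not tested.

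**Figure D3:**
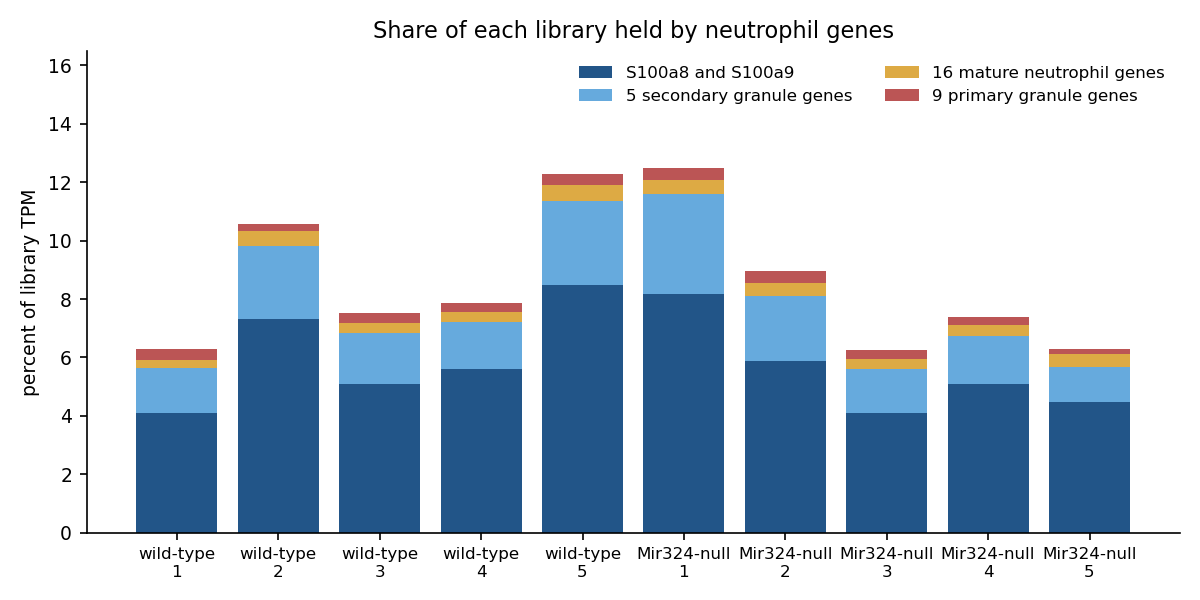
Percent of the TPM of each library (bars from 0, 1 per mouse) held by S100a8 and S100a9, by the 5 secondary granule genes, by 16 mature neutrophil genes and by 9 primary granule genes, stacked. The S100 pair is the largest block in every mouse, at 4.09% to 8.48%, and the tall bars are wild-type 2, wild-type 5 and null 1.

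Variation between mice of one genotype was large and shared by the 8 genes. The highest mouse was 2.09 times the lowest for S100a9 and 3.12 times for Chil3, with the other 6 genes between these. The SD of log2(TPM + 1) within a genotype was 0.396 to 0.569 for the 8 genes. The median was 0.24 over all genes tested and 0.151 over the 136 genes averaging 1000 TPM or more. On this measure the 8 genes stood between the 82.8 and 93.7 percentile of all genes. Each mouse tended to be high or low for the whole set. In 4 libraries all 8 genes were above their mean over the 10 mice (wild-type 2 and 5, null 1 and 2), in 5 libraries all 8 were below it (wild-type 1 and 3, null 3, 4 and 5), and wild-type 4 was mixed, with 2 above (Camp and S100a8).

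**Figure D4:**
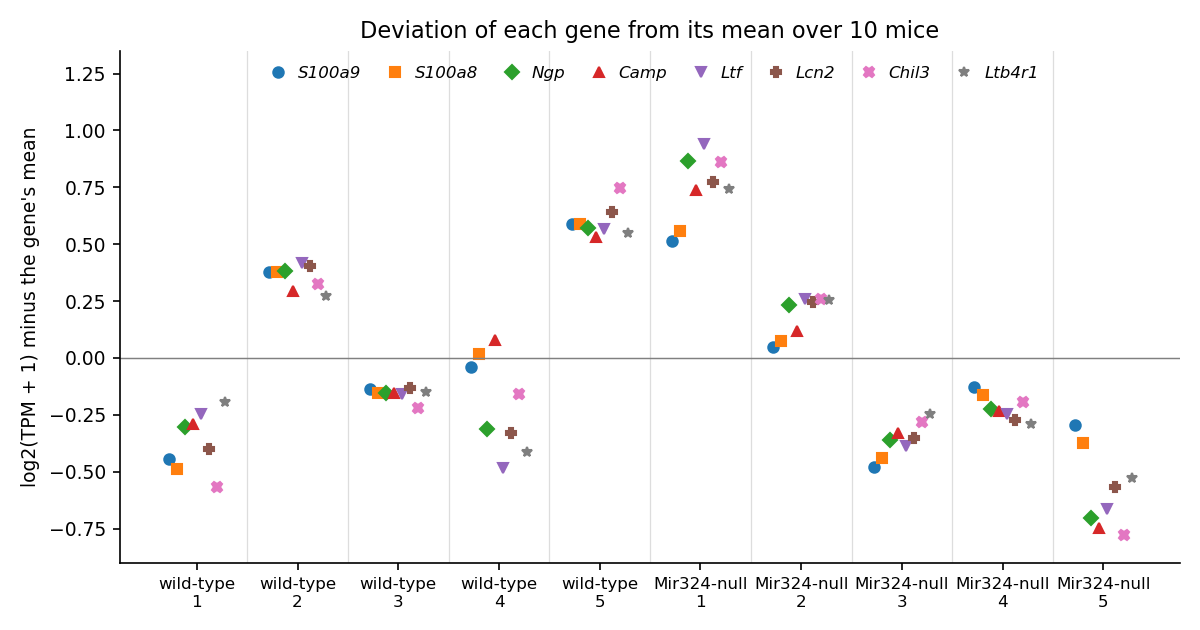
Deviation of log2(TPM + 1) from the mean of each gene over the 10 mice (y axis) for the 8 genes (symbols) in each mouse (x axis; replicate numbers carry no order). All 8 symbols lie above 0 in wild-type 2 and 5 and null 1 and 2, and in wild-type 4 they spread from -0.48 for Ltf to 0.079 for Camp.

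Correlations over the 10 mice were computed for the 28 pairs of the 8 genes, on log2(TPM + 1), with values that share the library total. Pearson's r ranged from 0.854 to 0.994. S100a8 and S100a9 formed the closest pair (r = 0.994, rho = 0.976, permutation p = 2e-05 and 3e-05, adjusted over 28 pairs 8e-05 and 0.00028), with r = 0.988 without the 2 mice farthest from the S100a8 median. For Ltf and Ngp, r was 0.992 and rho 0.988 (permutation p = 1e-05, the smallest that 100000 resamples give), and r was 0.981 without 2 mice. The weakest pair was S100a9 with Ltb4r1, with r = 0.854 and rho = 0.709 (permutation p = 0.00242 and 0.0279, both also after adjustment), and r = 0.657 without the 2 farthest mice. Taken as deviations from the genotype means, the 28 values were 0.864 to 0.994, so the shared movement lay within genotypes. The 8 genes were grouped with neutrophil biology and earlier results in view, and these correlations describe the set without being independent evidence for it.

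Ratios between members do not depend on the library total. The S100a9 to S100a8 ratio was 1.07 ± 0.0280 in wild-type and 1.07 ± 0.0414 in null mice (SD, n = 5 each), a log2 difference of 0.00012 (exact permutation p = 0.992). Camp to Ngp was 0.692 ± 0.0993 and 0.638 ± 0.0300 (SD, n = 5 each), a log2 difference of -0.11, and each of the 5 null values was under the average of the controls (exact permutation p = 0.270). Without wild-type 4 this difference was -0.024. For the ratios of Ltf, Lcn2, Chil3 and Ltb4r1 to Ngp the log2 differences were 0.037, 0.0040, 0.023 and 0.049 (exact permutation p = 0.532, 0.976, 0.833 and 0.460). All 6 ratios had an adjusted p of 0.992, and the genotypes overlapped in each. A ratio such as Lcn2 to Ngp stayed within 0.389 to 0.458 over the 10 mice, while each of the 2 genes varied by more than 2-fold.

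Other neutrophil genes give the stages around this set. The 14 other specific and gelatinase granule genes all passed the filter. None passed adjustment, 1 was higher (Slc11a1) and 1 lower (Mmp9) at an unadjusted p under 0.05, against 4.28% and 7.3% of all genes. The median estimate was 0.094, but it ran from -0.033 without null 1 to 0.25 without wild-type 5 and was also below 0 without wild-type 1 (-0.019) or wild-type 4 (-0.0032). Mmp9, the gelatinase of the tertiary granule, averaged 729 and 556 TPM (log2 difference -0.38, SE 0.159, limma adjusted p = 0.399). Its Pearson's r with Ngp over the mice was 0.357, beside a median of 0.836 for these 14 genes. Hp (haptoglobin) averaged 542 and 548 TPM, and Mmp8, the neutrophil collagenase, 257 and 261 TPM, with limma adjusted p-values of 0.980 and 0.915. Of the 9 primary granule genes 8 passed the filter and 0 differed (median -0.033). They were led by Mpo (myeloperoxidase) at 936 and 919 TPM and Elane (neutrophil elastase) at 773 and 780 TPM. The 16 mature neutrophil genes likewise held 0 calls at either p. Their median of 0.078 ran from -0.12 without wild-type 1 to 0.19 without wild-type 5. Retnlg averaged 1744 and 1774 TPM and Wfdc21 969 and 830 TPM.

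The likeness of each gene to Ngp over the 10 mice was compared between lists. Pearson's r with Ngp had a median of 0.973 for the other 7 genes of the set and 0.836 for the 14 other specific and gelatinase granule genes. It was 0.394 for the 8 primary granule genes and 0.523 for the 16 mature neutrophil genes. Single genes of other lists were as close as the set. An r over 0.9 was found for 6 of the other 7 genes, 5 of the 14 and 2 of the 16. It was also found for 1 regulator of granulocyte maturation (Cebpe, 0.950) and 1 gene around leukotriene B4 (Cotl1, 0.936). Cd177 of the 14 and Trem3 of the 16 were highest in their lists, both at 0.980. All of these genes outside the set were above S100a9 at 0.899. Over all genes tested the median was 0.11, and 0.975% of genes had r over 0.9. Erythroid genes had a median of -0.40 and cartilage genes of -0.24. These values share the library total and describe 10 mice, and the difference between lists was not tested.

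**Figure D5:**
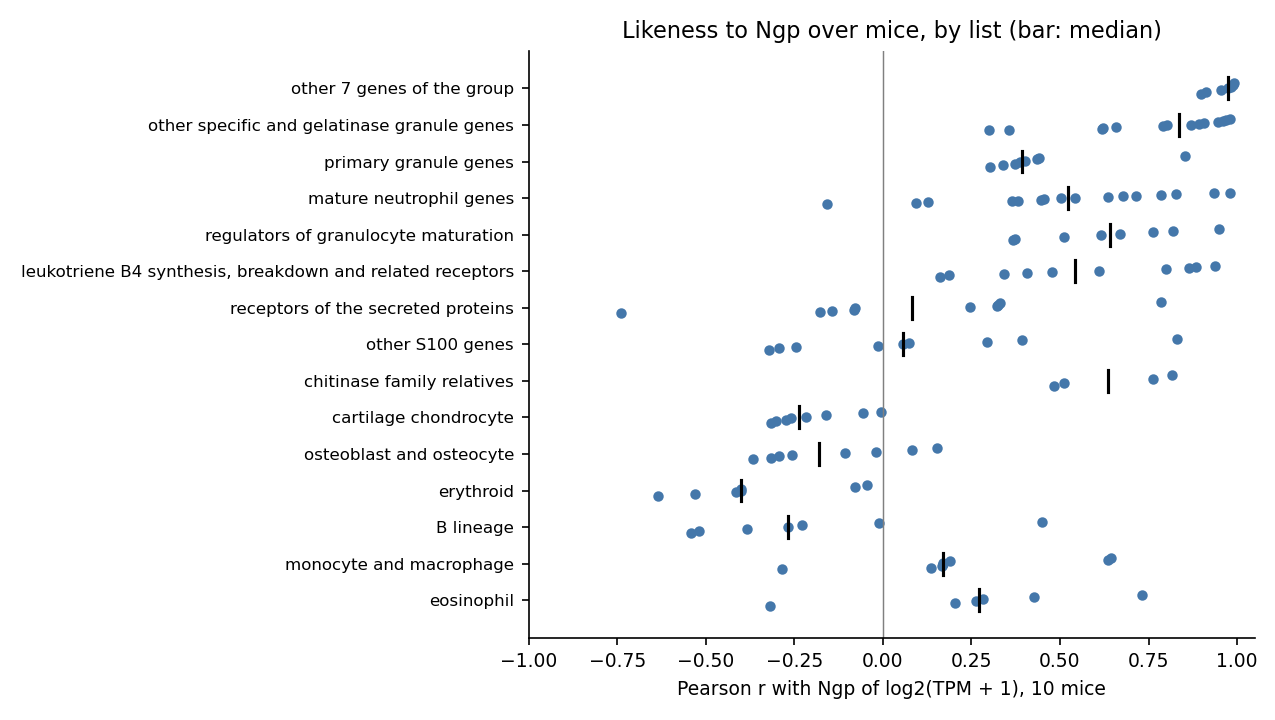
Pearson's r with Ngp of log2(TPM + 1) over the 10 mice (x axis) for the genes of each list that passed the filter (points, 1 per gene; bars are medians). The other 7 genes of the set lie between 0.899 and 0.992, the primary granule genes between 0.302 and 0.442 apart from Serpinb1a at 0.854, and the cartilage genes below 0. The other specific and gelatinase granule genes and the mature neutrophil genes each reach up to 0.980.

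The summed secondary granule share relative to the primary granule share differed between mice within both genotypes. It was 3.93, 11.3, 4.96, 5.22 and 8.18 in wild-type mice 1 to 5 and 8.33, 5.63, 4.799, 5.76 and 6.41 in null mice 1 to 5. Wild-type 2 was highest and wild-type 1 lowest. Relative to the 16 mature neutrophil genes, the secondary granule share was 5.64, 4.69, 4.73, 4.89 and 5.16 in wild-type mice and 7.64, 5.16, 4.63, 4.36 and 2.81 in null mice. Null mice 1 and 5 were the extremes of this ratio, and the wild-type mice lay between them. The S100 pair relative to the 5 secondary granule genes ran from 2.38 in null mouse 1 to 3.76 in null mouse 5.

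The genes most like each member over the 10 mice, by Pearson's r among the 13833 other genes tested, were named by rule. Ltf and Ngp shared Cldn1 (r = 0.991 and 0.985), Gyg (r = 0.986 and 0.991) and 4930438A08Rik (r = 0.983 and 0.987). Gyg encodes glycogenin, the primer of glycogen synthesis. Ltb4r1 was followed by Gyg (r = 0.984), Copg2 (0.983) and 4930438A08Rik (0.982), and Camp by Dock8 (0.982), Orm1 (0.962) and Trem3 (0.958). For Lcn2 the leading genes were Cd177 (0.988), Itgb2l (0.984) and Pglyrp1 (0.980), where Cd177 is a neutrophil surface glycoprotein and Pglyrp1 a peptidoglycan-binding granule protein. Chil3 was followed by Rhou, Pglyrp1 and Trem3 (r = 0.978, 0.978 and 0.975). S100a8 and S100a9 shared Clec4a2 (r = 0.975 and 0.973) and Map3k9 (0.966 and 0.969), a low gene at 3.83 TPM, and were followed by Hcst (0.958) and Gsdme (0.961). Between 24 (S100a9) and 171 (Ltb4r1) genes had r over 0.9 with a member.

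Regulators of granulocyte maturation were read from a list of 9 genes, made up of transcription factors and the growth factor gene Csf3. Of the 9, 8 passed the filter and 0 differed at either p (limma, median -0.028). Cebpe encodes C/EBP epsilon, which is required for secondary granule gene expression. It averaged 106 ± 25.4 TPM in control libraries and 108 ± 42.9 TPM in null libraries (SD, n = 5 each, log2 difference -0.028, limma adjusted p = 0.982), and its r with Ngp was 0.950, the highest of this list. Spi1, which encodes PU.1, averaged 172 and 181 TPM (limma adjusted p = 0.904) with an r of 0.820. Csf3, the gene of the growth factor G-CSF, was listed at 0 in all 10 libraries.

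Genes around leukotriene B4 were examined beside its receptor Ltb4r1. Of 11 genes 10 passed the filter, 0 differed at either p, and the median estimate was -0.023. Alox5, the lipoxygenase that starts leukotriene synthesis, averaged 54.4 and 53.7 TPM in wild-type and null mice (limma adjusted p = 0.983). Alox5ap, its activating protein, averaged 597 and 584 TPM (limma adjusted p = 0.978). Lta4h, the hydrolase that makes leukotriene B4, averaged 238 and 226 TPM (limma adjusted p = 0.890). Cotl1, a partner protein of the lipoxygenase, averaged 313 and 311 TPM (limma adjusted p = 0.999) and had the highest r with Ngp of this list (0.936).

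Receptors of the secreted proteins were present at lower levels. Of the 10 genes of this list, 10 passed the filter and 0 passed adjustment. At an unadjusted p under 0.05, 1 (Cd14) was lower, against 7.3% of all genes. The median was -0.11, beside -0.045 over all genes tested. Tlr4, the receptor of the S100 alarmins, averaged 10.3 and 9.51 TPM (log2 difference -0.11, limma adjusted p = 0.802). Bsg (basigin), a receptor of S100A9, averaged 425 and 465 TPM (limma adjusted p = 0.530), and Lrp1, a receptor of lactoferrin, 107 and 92.4 TPM (limma adjusted p = 0.781). Of 13 other S100 genes 9 passed the filter and 0 passed adjustment. At an unadjusted p under 0.05, 1 (S100b) was lower, against the same 7.3% of all genes, and the median was -0.17. The most abundant were S100a11, at 1299 and 1250 TPM, and S100a6, at 897 and 793 TPM. Unlike the alarmins, S100a6 had an r with Ngp of 0.294, while S100a11 had 0.831. Of 6 chitinase relatives of Chil3, 4 passed the filter and 0 differed at either p, led by Chil1 at 191 and 156 TPM and Chil5 at 6.97 and 7.64 TPM.

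Markers of other blood cells that can express some of these genes were read in the same way. The 8 monocyte and macrophage markers, led by Ly6c2 at 811 and 854 TPM and C1qa at 186 and 191 TPM, had a median r with Ngp of 0.17. The 6 eosinophil markers, led by Prg2 at 1479 and 1344 TPM and Ear1 at 379 and 348 TPM, had a median r of 0.272. The 7 B lineage markers, led by Ighm and Cd79b, had a median r of -0.27. In none of the 3 lists did a gene pass adjustment, and at an unadjusted p under 0.05 there were 0, 0 and 4 genes. The 4 of 7 B lineage genes were lower in null mice, against 7.3% of all genes. The count stayed at 4 after quantile normalization. It became 2 after median ratio scaling and 1 after rescaling without the haemoglobin genes. Over all genes tested, 929 were lower after quantile normalization, 860 after median ratio scaling and 578 after that rescaling.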

How the data were processed

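Per the labels' protocols and the series' design text, total RNA of ground cartilage was made into libraries with a low-input NEB kit. The authors deposited 1 table of TPM for 116912 transcripts, each library summing to 1000000. The submitters' processing notes name kallisto and DESeq2 without versions and the build GRCh38, a human build, although the identifiers are mouse. The index, trimming and strand setting are not given in the sources used here. TPM keep no read counts, so depth is unknown and no count model or counting interval was used.

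Transcripts were matched without version to GENCODE M21 (GRCm38), 115440 in all. The 1472 unmatched held 0.275% to 0.356% of a library. TPM were summed per gene, and 13841 genes averaging 1 TPM or more were tested as log2(TPM + 1), a scale that understates changes of low genes. limma 3.58.1 in R 4.3.3 (trend on mean expression) was fitted to all 10 libraries without covariates, two-sided, with Benjamini-Hochberg adjustment over all genes and a threshold of 0.05. The fit was tested on simulated data. Ratios of members were compared with exact permutation tests adjusted over 6 ratios. Alternatives were other pseudocounts (0.1 and 5), filters and scalings, limma without trend, a replicate block, and leaving out each mouse. Promoter windows are RefSeq's (GRCm38.p6), found for all 8 genes. 0 columns belonged to other samples.

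Named genes were the 8 members, the 2 most abundant genes of each of 15 lists with up to 3 called ones, 7 genes fixed by name, and the 3 genes most like each member. Genes named for an unadjusted p (Slc11a1, Cd14 and S100b), Csf3, Serpinb1a, Krt5 and Krt14 were named after their values were seen. The members and lists were chosen with earlier results of these data known. Python 3.11.15, numpy 2.4.6, pandas 2.3.3, scipy 1.17.1 and matplotlib 3.10.9 were used.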

Additional observations from a re-analysis of the deposited data

Results flagged for a closer look

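In wild-type mouse 4 the balance between secondary granule genes stood apart from the other wild-type mice. Its Camp to Ngp ratio was 0.867, while the next highest of the 5 was 0.667, and its Ltf to Ngp ratio was 0.497, while the next lowest was 0.559. In both, the gap to the nearest mouse made up more of the range of the group than Dixon's 95% critical value for 5 samples (0.71). The Ltf values count transcripts that are not annotated as coding. With protein-coding transcripts alone, the Ltf to Ngp ratio ran from 0.377 to 0.451 over the 10 libraries. The check was not repeated on those values, so the Ltf flag was examined with all transcripts counted and not with coding ones alone. 34 groups of 5 values were examined, and about 1 in 20 is expected to be picked by chance. On their own, Ltf (2742 TPM) and Ngp (5518 TPM) were lowest of the wild-type mice in this mouse, and Camp (4784 TPM) was the third of 5. The Camp to Ngp difference between genotypes was -0.024 without this mouse, and that of Ltf to Ngp -0.0018.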

How the results depend on the processing

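In every alternative run, 0 of the 8 genes had an adjusted or an unadjusted limma p under 0.05. The number of genes of the whole table with an adjusted p under 0.05 was 0 to 1 when single mice were left out, being 1 without wild-type replicate 3, wild-type replicate 4 or Mir324-null replicate 1, and 0 in all other alternatives. The share of lower genes among those at an unadjusted p under 0.05 was 63.1% with TPM as deposited, 48.5% after median ratio scaling, 51.2% after quantile normalization and 32.2% after rescaling without the haemoglobin genes. These scalings moved the median of all genes from -0.045 to 0.011, 0.0038 and 0.036. The labels do not say whether a replicate number marks a shared litter or day. Correlations of same-numbered deviations were -0.14 to 0.056, and 0 of 5 mice matched best with their own number. With so few mice these values cannot decide whether the numbers pair them. With the replicate block 1168 genes had an unadjusted p under 0.05, against 1603, and no call changed.

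The sign of 5 members turned, always within the spread between mice, and the cause was not tested. After median ratio scaling Ltf was 0.026, Chil3 0.011 and Ltb4r1 0.037. After quantile normalization Ltf was 0.18, Lcn2 0.11 and Chil3 0.11, and the S100a9 to S100a8 ratio -0.074. After rescaling without haemoglobin genes Ltf was 0.053, Ngp 0.016, Lcn2 0.020, Chil3 0.038 and Ltb4r1 0.064. Leaving out single mice gave -0.28 to 0.12 for Ltf, -0.30 to 0.092 for Ngp, -0.27 to 0.080 for Lcn2, -0.27 to 0.14 for Chil3 and -0.21 to 0.11 for Ltb4r1. It gave -0.020 to 0.012 for the S100a9 to S100a8 ratio, and for the ratios to Ngp -0.0018 to 0.055 (Ltf), -0.030 to 0.028 (Lcn2) and -0.041 to 0.070 (Chil3). Camp, S100a8 and S100a9 kept estimates below 0 in all alternatives, but came close to 0. With single mice left out they were -0.39 to -0.019 for Camp, -0.29 to -0.0058 for S100a8 and -0.28 to -0.0059 for S100a9. List medians also turned sign with single mice left out, at -0.20 to 0.11 for primary granule genes, -0.12 to 0.084 for the regulators, -0.097 to 0.079 for leukotriene B4 genes and -0.15 to 0.077 for chitinase relatives, and each of these 4 did so under at least 2 of the 3 other scalings. Counts of bone, erythroid and B lineage markers under the scalings were added after the data were seen. Depth is unknown, and 5 mice a group limit the precision.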
